A study of Mus musculus with 2 samples.

Results

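The 10 genes described here are the 4 R-spondins (Rspo1, Rspo2, Rspo3 and Rspo4), their receptors Lgr4, Lgr5 and Lgr6, the membrane ubiquitin ligases Znrf3 and Rnf43 and the feedback gene Axin2. They were chosen by name as a pathway group, with earlier results of these data known, and all 10 were found by Ensembl identifier in the gene tables of both libraries, out of 43346 genes. The study has 1 group of 2 biological replicates: total RNA from the whole stomachs of mouse embryos of strain B6NCrl, taken at embryonic day 15.5, both sexes pooled, with no genetic change or treatment named. Replicate 1 pooled the stomachs of 78 embryos and replicate 2 those of 62, so each value is a mean over many embryos and over every cell type left in the dissected organ. RNA longer than 200 nucleotides was used, with 10 ng of input per library and ERCC spike-in RNAs added. There is no second condition, and the question asked of these genes is at what level and in which transcript forms each was present, and how far both pools gave the same values.

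R-spondins are secreted proteins that strengthen Wnt signalling. Znrf3 and Rnf43 are transmembrane ubiquitin ligases that remove Frizzled, the Wnt receptor, from the cell surface; an R-spondin bound to an Lgr receptor draws these ligases off the surface, so that more Frizzled stays there. Axin2, a scaffold of the complex that destroys beta-catenin, is a direct target of the pathway and a brake on it, and Znrf3, Rnf43 and Lgr5 are also known as Wnt targets. In the adult stomach Lgr5 marks stem cells at the base of pyloric glands and some chief cells of the corpus, and R-spondin 3 comes from stromal cells beneath the glands.

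The main isoform result for Lgr4 turns on its second exon, shown here beside the same exon of its relatives. The second exon of each has 72 bases, exactly 24 codons, the length of the leucine-rich repeats that form the R-spondin-binding outer part of these receptors. Lgr4 is annotated with and without this exon. In mm10 the exon lies at chr2:109970692-109970763 (+) in Lgr4, at chr10:115520606-115520677 (-) in Lgr5 and at chr1:135075227-135075298 (-) in Lgr6, and it is coding throughout. The letters come from the GENCODE M21 transcripts and are read 5′ to 3′ on the gene's strand, with capitals for the 36 bases that are the same in all 3 genes.
Lgr4 exon 2: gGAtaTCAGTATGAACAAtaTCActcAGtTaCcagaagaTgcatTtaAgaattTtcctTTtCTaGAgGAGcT
Lgr5 exon 2: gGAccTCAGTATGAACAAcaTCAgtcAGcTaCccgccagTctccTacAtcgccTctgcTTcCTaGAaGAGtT
Lgr6 exon 2: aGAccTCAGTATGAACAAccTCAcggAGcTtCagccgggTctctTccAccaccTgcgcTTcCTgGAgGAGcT
Lgr5 and Lgr6 shared 72.2% of these bases, Lgr4 and Lgr5 61.1%, and Lgr4 and Lgr6 59.7%. Over the whole coding sequence the aligned bases were 64.9% identical between Lgr5 and Lgr6, 62.6% between Lgr4 and Lgr5 and 59.6% between Lgr4 and Lgr6. The R-spondin coding sequences were 59.97% to 63.4% identical in pairs, and those of Znrf3 and Rnf43 were 63.8% identical. The expected counts of all 10 genes were whole numbers in both libraries (tolerance 0.005), as they are where no read is divided with another gene.

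Levels are given as TPM, a unit of relative abundance scaled by transcript length and library, so that genes can be compared. Of the 10 genes, 9 reached 1 TPM in both libraries, and Rspo4 did not. For comparison, 35.9% of all genes and 64.5% of protein-coding genes reached that level. From the highest mean to the lowest the order was Lgr4, Rspo3, Rnf43, Rspo1, Znrf3, Rspo2, Lgr5, Axin2, Lgr6 and Rspo4. The values of the neighbours Rnf43 and Rspo1, Rspo1 and Znrf3, and Lgr5 and Axin2 overlapped between the libraries; the other neighbours did not overlap. With 2 libraries no exact test of such a difference can reach significance, and errors are the SD of both values. Lgr4, the highest, stood above 71.4% of protein-coding genes in replicate 1 and 69.6% in replicate 2, Lgr6 above 36.4% and 37.4%, and Rspo4 above 20.97% and 26.6%.

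**Figure D1:**
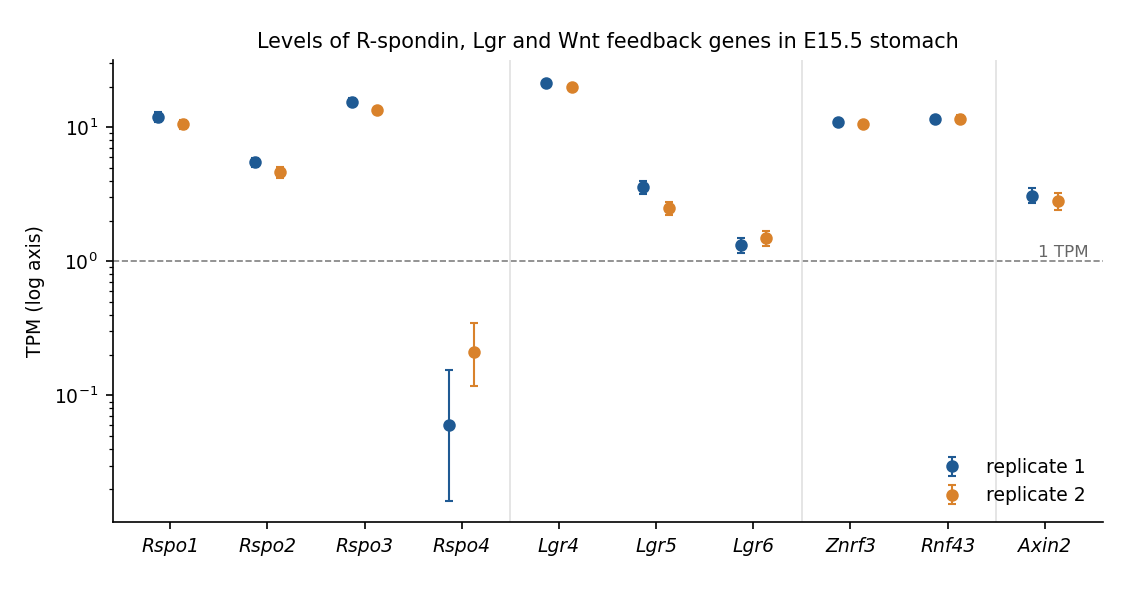
TPM on a log axis (vertical) for each of the 10 genes (horizontal) in replicate 1 (blue) and replicate 2 (orange); bars are exact Poisson 95% intervals of the count, which cover counting error only, and the dashed line marks 1 TPM. Lgr4 is highest in both libraries, at 21.31 and 19.85 TPM, and Rspo4 alone lies below the line.

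The R-spondins were dominated by Rspo3 and Rspo1. Rspo3 (ENSMUSG00000019880, chr10:29452416-29535867, minus strand), known for its role in vessel and placenta development, had 15.48 TPM in replicate 1 and 13.32 in replicate 2, or 14.4 ± 1.53 (SD, n = 2), on 1097 and 948 counts. Rspo1 (ENSMUSG00000028871, chr4:124986430-125009099, plus strand), known from ovary determination, had 11.9 and 10.47 TPM, or 11.2 ± 1.01, on 622 and 548 counts. Replicate 1 was the higher library for both genes, and within each library Rspo3 was the higher gene, by a log2 ratio of 0.36 ± 0.02.

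Rspo2 (ENSMUSG00000051920, chr15:43020794-43170826, minus strand), known from limb and lung development, had 5.45 and 4.62 TPM on 543 and 462 counts, again higher in replicate 1. Rspo4 (ENSMUSG00000032852, chr2:151842927-151874668, plus strand), known from nail development, had 4 counts in replicate 1 and 15 in replicate 2. That is 0.06 TPM (exact Poisson 95% interval 0.0163 to 0.154) and 0.21 TPM (0.118 to 0.346), intervals that overlap. Each was computed from the count of 1 library, so it covers counting error only. The reads also carry no molecular identifiers. Summed, the family reached 32.89 TPM in replicate 1 and 28.62 in replicate 2, and its composition was close in both: Rspo3 made up 47.1% and 46.5% of the sum, Rspo1 36.2% and 36.6%, Rspo2 16.6% and 16.1%, and Rspo4 0.182% and 0.734%. Since whole organs were sequenced, a lower level in a pool can mean fewer cells that express a gene or less RNA per cell, which cannot be told apart here.

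Among the receptors Lgr4 made up most of the sum. Lgr4 (ENSMUSG00000050199, chr2:109917647-110014257, plus strand), the receptor known for broad epithelial expression, had 21.31 and 19.85 TPM, or 20.6 ± 1.03 (SD, n = 2), on 3189 and 3007 counts. Lgr5 (ENSMUSG00000020140, chr10:115450311-115587780, minus strand), the stem cell marker of gut epithelia, had 3.55 and 2.49 TPM on 349 and 333 counts. Lgr6 (ENSMUSG00000042793, chr1:134983301-135105276, minus strand), known from hair follicle stem cells, had 1.32 and 1.48 TPM on 227 and 237 counts, just above the detection limit, and it would fall below a limit of 2 TPM. Lgr4 thus made up 82.4% ± 1.37 of the receptor sum, Lgr5 12.01% ± 2.20 and Lgr6 5.63% ± 0.828. On the log2 scale Lgr4 exceeded Lgr5 by 2.79 ± 0.29 and Lgr6 by 3.88 ± 0.19, far more than either gene differed between libraries.

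Both ubiquitin ligases stood near 11 TPM as genes. Znrf3 (ENSMUSG00000041961, chr11:5276324-5444847, minus strand) had 10.98 and 10.49 TPM on 2078 and 2000 counts, and Rnf43 (ENSMUSG00000034177, chr11:87662722-87735539, plus strand) had 11.51 and 11.53 TPM on 1210 and 1182 counts. The log2 ratio of Rnf43 to Znrf3 was 0.10 ± 0.05, higher for Rnf43 in both libraries. This order turned round when only protein-coding transcripts were summed, at 5.61 and 5.37 TPM for Rnf43 against 10.97 and 10.5 for Znrf3, a log2 ratio of -0.97. It also turned round in CPM, counts scaled by library with no correction for length, at -0.77. Axin2 (ENSMUSG00000000142, chr11:108920349-108950783, plus strand) had 3.08 and 2.8 TPM on 235 and 202 counts, a level like that of Lgr5, and replicate 1 was again slightly higher.

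The 2 libraries were compared gene by gene. An exact binomial test (two-sided) of each gene's counts, with Benjamini-Hochberg adjustment over 20918 genes and a limit of a 2-fold difference, called none of the 10, where it called 6.72% of all genes tested, a share at which 0 of 10 says little about these genes. The binomial test at an unadjusted p below 0.05 took in 6 of the 10, against 40.1% of all genes. The exact test of edgeR, with a common dispersion estimated from both libraries, also called 0 of the 10, against 3.22% of all genes, and gave 1 of them, Rspo4, an unadjusted p below 0.05. These tests compare 2 libraries, and the binomial test covers counting error only. The edgeR dispersion came from the same 2 libraries, so it takes in the difference being tested. For that reason 0 calls by edgeR do not show that the libraries gave the same values.

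By direction, 8 of the 10 genes had fewer scaled counts in replicate 2 than in replicate 1, and Rspo4 and Lgr6 had more. The median log2 ratio of the 10, replicate 2 to replicate 1, was -0.12, beside -0.003 for all genes tested, and their median absolute log2 ratio was 0.18, beside 0.15 for all genes tested and 0.10 for those with at least 200 counts. Without the fold limit, 4 of the 10 had an adjusted p below 0.05 by the binomial test, against 32.0% of all genes. They were Rspo3 (log2 ratio -0.25, binomial adjusted p = 0.000497), Lgr4 (-0.13, 0.00274), Rspo2 (-0.28, 0.0111) and Rspo1 (-0.22, 0.0274). The 3 detected R-spondins thus lay 14.4% to 17.4% lower in replicate 2, and Lgr4 8.43% lower. Scaling by the spike-ins moved every log2 ratio by -0.68, and Lgr6 then changed sign, from 0.02 to -0.66. None of the 10 was then called, against 16.8% of all genes, but several came close to the fold limit. With the spike-ins 9 of the 10 ratios lay below 0, all but that of Rspo4, and those 9 had a binomial adjusted p below 0.05. The lowest were Rspo2 (-0.96), Axin2 (-0.94), Rspo3 (-0.93) and Rspo1 (-0.90), just short of a 2-fold difference.

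**Figure D2:**
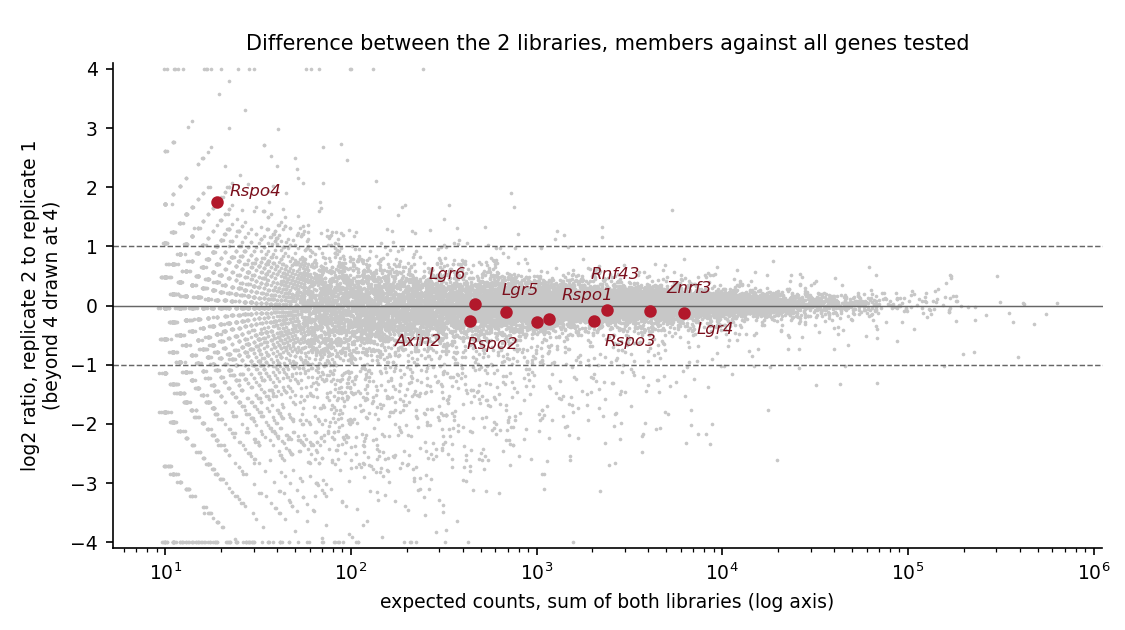
Log2 ratio of replicate 2 to replicate 1 (vertical) against the summed expected counts of both libraries (horizontal, log axis) for 20918 genes (grey) and the 10 genes described here (red); dashed lines mark a 2-fold difference. Of the 10 genes, 9 lie between the dashed lines, and Rspo4, on 19 counts in all, lies above them at 1.74.

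The libraries as a whole held 43209506 and 44257493 expected counts on genes, and the 10 genes took 0.0221% and 0.0202% of them. Of the marker lists for the organ's own tissues, all 9 forestomach squamous genes, 7 of 7 mesenchymal and 8 of 10 glandular genes were detected, and so were all 7 liver, 6 exocrine pancreas and 7 intestinal genes, with no gene of any of these lists at 0 counts. The summed TPM of some lists differed between the libraries, with genes called by the binomial test. The squamous list stood at 2969 and 1573 (5 of 9 genes called lower in replicate 2) and the liver list at 2237 and 1090 (5 of 7 called lower). Red cells stood at 23158 and 12966 (3 of 6 called lower) and striated muscle at 95.7 and 160 (2 of 5 called higher). Of the called squamous genes only Sprr3 had an edgeR adjusted p below 0.05, and no called red cell gene had. All called liver and striated muscle genes had one. Whether the pools differed in cell composition was not tested. Beside the lower R-spondin values of replicate 2 stood the mesothelial list, at 139 and 112 TPM, with 5 of 5 genes lower, a median log2 ratio of -0.29 and 0 called by the binomial test; the squamous (9 of 9), liver (7 of 7) and red cell (6 of 6) genes were also all lower there. The mesenchymal list stood at 3209 and 3356 TPM. Of the remaining lists, 0 of 5 smooth muscle, 0 of 5 endothelial, 0 of 6 enteric, 0 of 7 intestinal and 0 of 6 pancreatic genes were called. The test called 6.72% of all genes, so 0 calls in lists this short do not show equal levels. The pancreatic list stood at 6166 and 8346 TPM, with 6 of 6 genes higher in replicate 2. The intestinal list stood at 858 and 1065 TPM, with 6 of 7 higher. Smooth muscle stood at 3175 and 3210 TPM, endothelium at 187 and 199 and the enteric list at 138 and 149. Of the glandular genes 1 was called higher and 2 lower. What part these differences had in the values of the 10 genes was not tested.

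Transcript forms were read from the authors' division of each gene's reads among annotated transcripts. Rspo2, Rspo3 and Rspo4 had 1 transcript each in the tables, Rspo1-201 took 97.0% and 96.6% of the TPM of Rspo1, and Znrf3-201 took 95.9% and 96.5% of that of Znrf3. The table's model of Rspo3 was 2394 bases long, against 3085 in the later annotation M21, so reads in the added bases were not counted. Of the 39 transcripts of the 10 genes, 37 had the same length in both. Lgr4, Lgr5, Lgr6, Rnf43 and Axin2 spread over several forms.

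Lgr4 was divided between forms with and without the exon printed above. Lgr4-201, which contains it, took 43.02% of the gene's TPM in replicate 1 and 52.29% in replicate 2, and Lgr4-202, which skips it, took 55.31% and 46.77%. The leading form therefore differed between the libraries. The authors' intervals of the TPM overlapped, at 6.73 to 12.1 and 7.41 to 12.9 for Lgr4-201 and 8.49 to 13.96 and 6.34 to 11.9 for Lgr4-202; the level of these intervals is not given in the sources used here. Lgr4-202 has no base that is not also in another form of the gene, so its share rests on reads across the splice junction and on the coverage of those 72 bases. The skipped form keeps the reading frame and lacks 24 codons, with 2781 coding bases against 2853. A change of 9.27 percentage points exceeded the largest change of 74.2% of the 9966 genes with at least 2 transcripts and 100 counts in each library, whose median was 4.92 points.

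Lgr5 shows how a short transcript with few reads can move a gene's TPM. The full-length Lgr5-201 had 2.15 and 2.11 TPM on 306.52 and 301.91 counts, nearly equal in both libraries. The short noncoding Lgr5-203 has 607 bases, only 73 of them in no other form, so its share rests largely on how shared reads were divided. It was given 17.29 counts in replicate 1 and 2.49 in replicate 2, yet these gave 1.10 and 0.16 TPM, or 31.0% and 6.36% of the gene. The authors' intervals of this TPM overlapped, at 0.349 to 2.05 and 0.00921 to 0.633. The average effective length used for the gene accordingly stood at 3180 bases in replicate 1 and 4320 in replicate 2. The TPM of Lgr5 thus had a log2 ratio of -0.51 between the libraries, while its counts had -0.11 (binomial adjusted p = 0.518) and its protein-coding forms summed to 2.15 and 2.11 TPM. By TPM the largest change in share for Lgr5, 24.65 points, exceeded that of 96.7% of genes; by counts it was 4.21 points and exceeded that of 58.0%. The forms Lgr5-206, which lacks the 72-base exon 8 (chr10:115470564-115470635), and Lgr5-208, which lacks the 216-base exon 5 (chr10:115478387-115478602), were given 0 counts in both libraries.

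Lgr6 was led by the full-length Lgr6-201, with 73.4% and 63.6% of the TPM, followed by Lgr6-202, which begins inside the gene and took 26.6% and 36.4%. By counts the full-length form held 87.0% and 80.9%. The lead of the full-length form was seen in both libraries and by both measures.

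**Figure D3:**
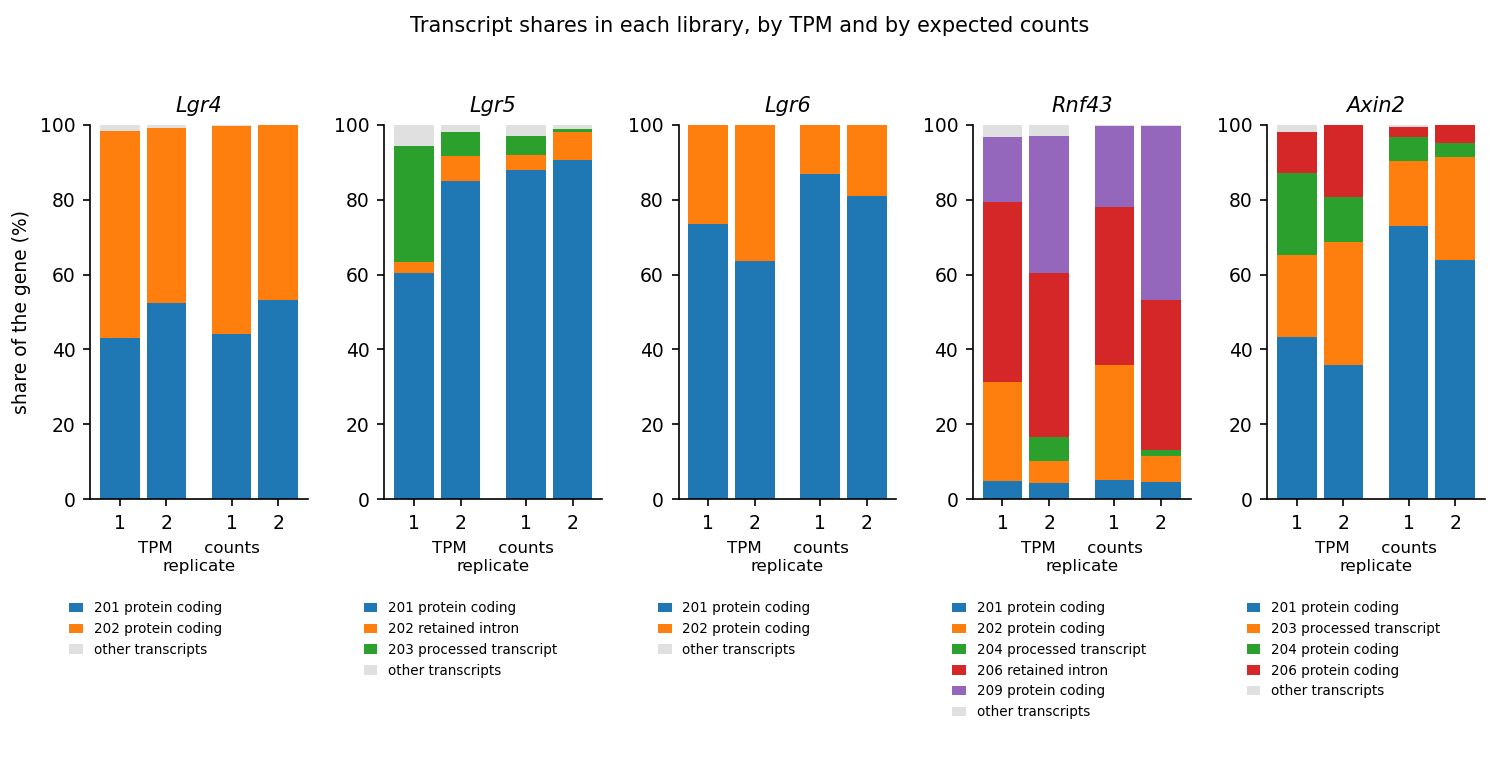
Share of each gene (vertical, percent) taken by its transcripts in replicates 1 and 2, by TPM (left pair of bars) and by expected counts (right pair), for Lgr4, Lgr5, Lgr6, Rnf43 and Axin2; transcripts under 5% in all 4 bars are grouped as other. The short form Lgr5-203 takes 31.0% of TPM but 4.95% of counts in replicate 1, and the 2 forms of Lgr4 change places between the libraries.

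Rnf43 had its reads divided between a form annotated as retaining an intron and full coding forms. Rnf43-206, a noncoding form, had 5.51 and 5.04 TPM, or 47.9% and 43.7% of the gene, on 513.54 and 471.28 counts. Its first exon is unspliced, its last exon runs on into the next intron, and it lacks the later exons of the coding forms. Of its 3116 bases, 1651 are in no other form, and they lie in its first and last exons. The protein-coding forms Rnf43-202 and Rnf43-209 encode the same number of coding bases, 2352, and differ at their 5′ ends. Rnf43-202 took 26.4% and 5.81% and Rnf43-209 took 17.4% and 36.5%, so they changed places between the libraries. Neither has a base of its own, and together they took 43.75% and 42.34% on 629.11 and 631.42 counts, close to equal. Rnf43-204, a short noncoding form, had 0 counts in replicate 1 and 20.09 in replicate 2.

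The protein-coding forms of Rnf43 begin in 2 regions. Forms that begin at the upstream starts (Rnf43-202, Rnf43-203, Rnf43-204, Rnf43-206 and Rnf43-209) took 91.65% and 92.66% of the gene's TPM, and Rnf43-201, the form that begins about 37 kb downstream, took 4.98% and 4.29%. The rest fell to 3 short noncoding forms that begin further downstream (Rnf43-205, Rnf43-207 and Rnf43-208). The 250 bases before a start in each of the 2 regions are shown because this split between the regions was close in both libraries. They are from RefSeq promoters of GRCm38.p6, on the plus strand, with CpG dinucleotides in capitals. The upstream window lies at chr11:87662837-87663086, before the start of Rnf43-204 and Rnf43-209 and inside the first exon of the noncoding Rnf43-206. The share of the upstream region does not belong to this start alone. Of the forms that begin at it, Rnf43-209 took 17.38% and 36.53% of the TPM and Rnf43-204 took 0% and 6.61%. The downstream window lies at chr11:87699647-87699896, before the start of Rnf43-201 and within an intron of the forms that begin upstream.
Rnf43 upstream window: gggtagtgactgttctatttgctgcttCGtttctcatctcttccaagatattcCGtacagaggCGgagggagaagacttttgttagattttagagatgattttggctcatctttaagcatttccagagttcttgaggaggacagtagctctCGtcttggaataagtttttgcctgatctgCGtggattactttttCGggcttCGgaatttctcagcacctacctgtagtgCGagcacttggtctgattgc
Rnf43 downstream window: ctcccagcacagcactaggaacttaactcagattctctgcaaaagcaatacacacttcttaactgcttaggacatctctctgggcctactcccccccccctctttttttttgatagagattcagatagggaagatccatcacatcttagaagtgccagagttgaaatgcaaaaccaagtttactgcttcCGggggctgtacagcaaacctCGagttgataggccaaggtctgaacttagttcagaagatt
The upstream window held 8 CpG and 44.4% G and C, and the downstream window 2 CpG and 45.2%. The median of the 32851 promoters in that table was 6 CpG and 52.4%, and 57.0% of promoters had fewer CpG than the upstream window and 18.8% fewer than the downstream one. The letters CTTTG followed by any pair of A or T, searched on both strands as the core of the TCF motif, were in 16.9% of all promoter windows of 300 bases. They were in none of the 7 windows of the 6 genes found in that table (Rspo1, Rspo4, Lgr4, Lgr6, Rnf43 and Axin2), which says only that these letters are not in those windows.

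**Figure D4:**
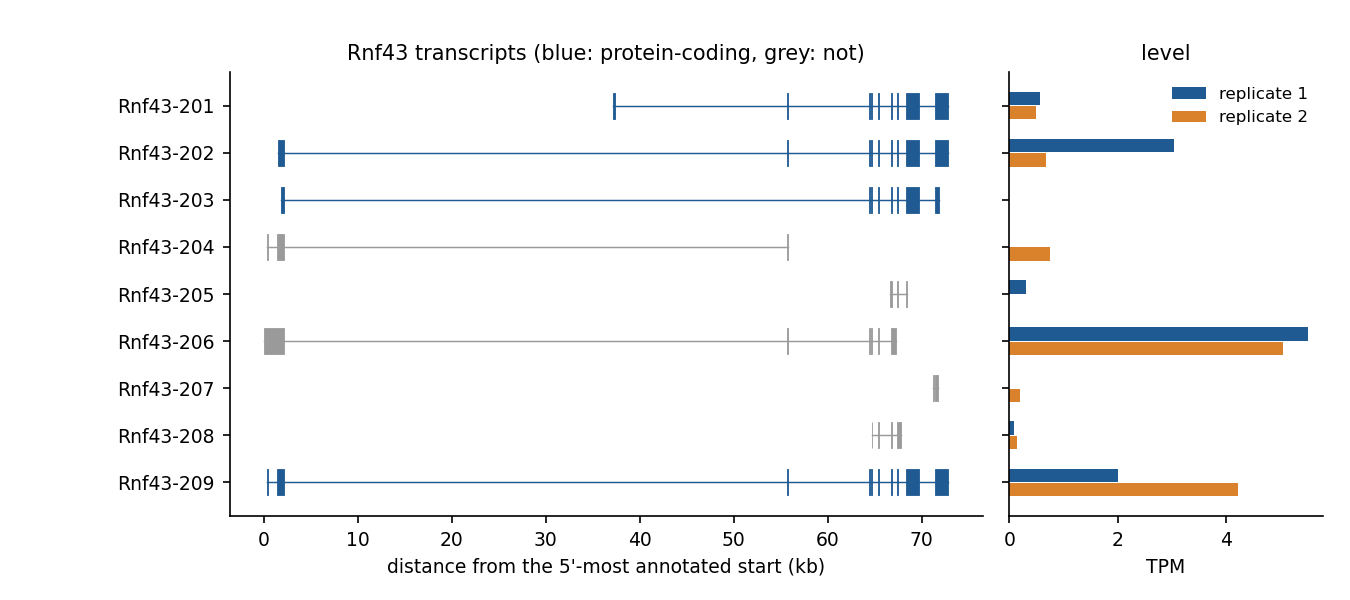
Left, exons of the 9 Rnf43 transcripts (boxes; blue protein-coding, grey not) by distance in kb from the 5′-most annotated start; right, TPM of each transcript in replicate 1 (blue bars) and replicate 2 (orange bars). Rnf43-206 is the highest form in both libraries, at 5.51 and 5.04 TPM, while Rnf43-202 and Rnf43-209 change places.

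Axin2 had 72.8% and 63.8% of its counts on the full-length Axin2-201, but only 43.2% and 35.8% of its TPM, because shorter forms weigh more per read. The noncoding Axin2-203 took 22.0% and 32.9% of the TPM on 40.81 and 55.53 counts. Only 35 of its 2045 bases are in no other form, so its share rests largely on how shared reads were divided. The 2-exon forms Axin2-204 and Axin2-206, both from the 5′ part of the gene, took 21.9% and 12.1%, and 11.0% and 19.2%, on fewer than 16 counts each. An antisense gene, Gm11670, shares 209 exon bases with Axin2 and had 1 and 0 counts. For Rspo3 the antisense gene Gm48159 shares 404 exon bases by the M21 annotation. Whether these lie within the 2394-base model of Rspo3 that was quantified was not checked. Gm48159 is not among the genes the authors quantified, so it has no counts of its own. The strand setting of the counting is not given in the sources used here, so reads of such pairs cannot be told apart.

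The other genes of the pathway were present at each step. Of 96 genes in 8 lists, 75 were detected, and of the 85 with enough counts 2 were called higher in replicate 2 and 0 lower, or 2.35%, beside 6.72% of all genes tested; their median log2 ratio was -0.04. Both called genes were at the edge of detection: Gpc5, a glypican, had 3 and 14 counts (binomial adjusted p = 0.0416) and Rxfp2, the receptor of the hormone Insl3, had 4 and 17 (0.0261). The edgeR exact test called neither.

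Of 19 Wnt ligands 11 were detected and 8 were below 1 TPM in both libraries. Wnt5a led with 22.6 and 18.23 TPM, followed by Wnt4 with 16.74 and 11.1 and Wnt5b with 8.57 and 7.1, all higher in replicate 1 and none called. The summed R-spondins, at 32.89 and 28.62 TPM, compare with 70.8 and 55.9 TPM for the summed Wnt ligands.

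Of 15 Frizzled receptors and co-receptors, the targets of Znrf3 and Rnf43 among them, 13 were detected. By mean TPM Ryk, a Wnt co-receptor, led with 18.89 and 24.09 TPM, followed by Fzd1 with 20.36 and 20.49 and Fzd2 with 19.42 and 17.83. None of the 15 was below 1 TPM in both libraries. Heparan sulphate proteoglycans, to which R-spondins and Wnts bind, had 9 of 10 detected, and Gpc3 led with 489 and 473 TPM, followed by Sdc1 with 116 and 106 and Sdc4 with 111 and 108. The 5 relatives of the Lgr receptors in the hormone receptor family were all below 1 TPM in both libraries.

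Inside the cell, all 14 genes of the destruction complex and its partners were detected, led by Ctnnb1 (beta-catenin) with 326 and 357 TPM, Csnk1a1 with 207 and 195 and Gsk3b with 44.5 and 44.1. Of 8 nuclear effectors 7 were detected, led by Tcf7l2 with 70.56 and 73.66 TPM, Bcl9 and Pygo2, and 1 was below 1 TPM in both. Of 16 antagonists 12 were detected and 4 were below 1 TPM in both, and Sfrp2, a secreted Wnt-binding protein, led with 121.61 and 103.9 TPM, before Sfrp1 with 71.67 and 82.74 and Dkk3 with 27.18 and 25.02. Of the 9 other feedback and target genes all were detected, led by Myc with 76.28 and 75.12 TPM, Ccnd1 with 49.54 and 61.31 and Sox9 with 34.49 and 41.45. These are targets of several pathways. None of these 47 genes was called different between the libraries, where the same binomial test and fold limit called 6.72% of all genes tested. Sost and Dkk4 had too few counts to be tested. Differences below the fold limit are not called.

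**Figure D5:**
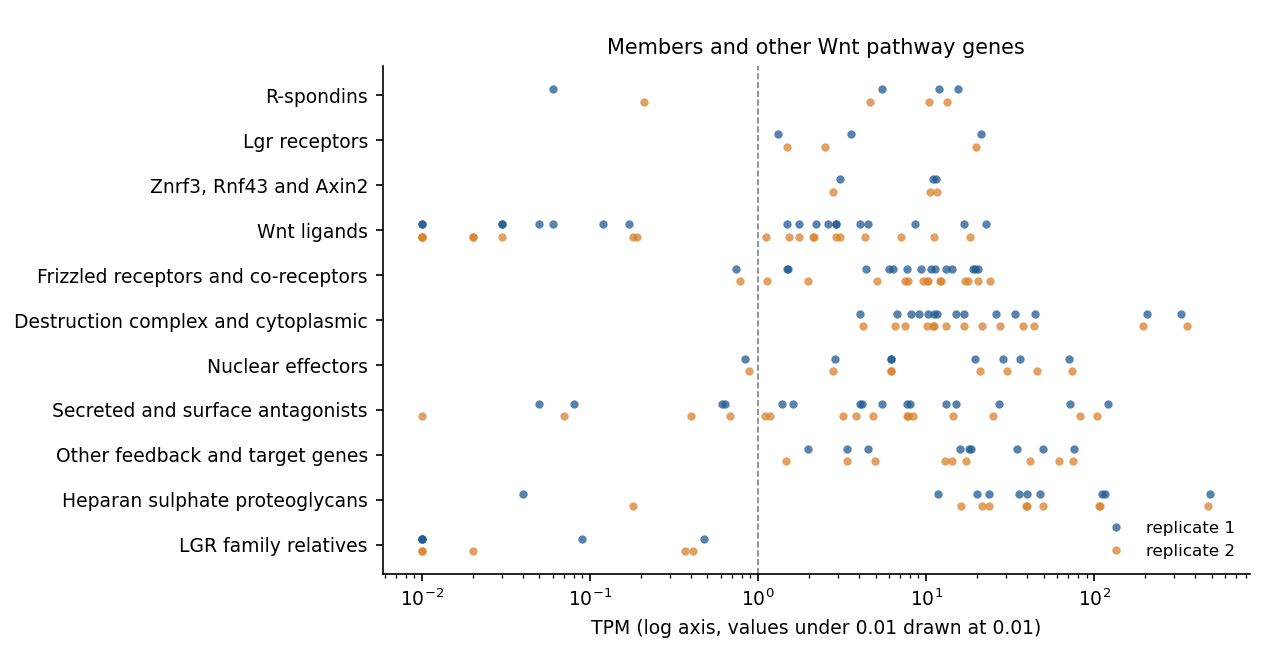
TPM (horizontal, log axis; values under 0.01 drawn at 0.01) of the R-spondins, the Lgr receptors, the group of Znrf3, Rnf43 and Axin2, and 8 lists of other Wnt pathway genes, 1 point per gene in replicate 1 (blue) and replicate 2 (orange); the dashed line marks 1 TPM. The hormone receptor relatives of the Lgr genes all lie left of the line, and Ctnnb1 and Gpc3 are the highest points of their lists.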

How the data were processed

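Total RNA of 2 pools of whole stomachs from mouse embryos was measured. The labels name a mirVana extraction and link a low-input cDNA kit manual. The authors deposited a gene and a transcript table per library, built, per a deposited text file, on the mm10 genome and the M4 gene annotation. The aligner, quantifier and strand setting are not given in the sources used here. Per the file headers the tables hold expected counts (reads that match several features are divided among them), TPM and FPKM scaled by effective length. The deposited transcript tables give each form's share in percent of the gene's TPM.

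Symbols and coordinates came from GENCODE M21 on the same build, by identifier without version. Counts were rounded for tests. TMM library sizes came from edgeR 4.0.16 (R 4.3.3) over genes whose summed counts reached 10. Binomial tests used scipy 1.17.1, with Benjamini-Hochberg adjustment over all genes tested, and a gene was called at an adjusted p below 0.05 and a log2 ratio of at least 1 in size. Ratios used a prior count of 0.5. Detection meant 1 TPM in both libraries. The binomial procedure was tried on simulated counts that held counting error only. Such counts cannot show how it behaves where pools differ by more than that. Depth was 43209506 and 44257493 counts on genes, and Poisson intervals cover counting error only.

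The members and gene lists were chosen with earlier results of these data known. Named were all 10 members, their transcripts with a mean share of at least 5%, the 3 highest genes of each pathway list and every called one, and for marker lists the sums and counts called; single forms below that share and overlapping antisense genes were named after their values were seen. No gene was named for a pattern like a member's, since 2 libraries of 1 group give none. Alternatives were FPKM, posterior-mean TPM, summed transcript TPM, CPM, each library alone, other scalings (DESeq2 1.42.0 size factors, totals, spike-ins), other minimum counts and thresholds, and the edgeR exact test. Protein-coding transcripts alone were added after seeing the data.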

Additional observations from a re-analysis of the deposited data

How the results depend on the processing

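No paired analysis was possible because the series has 1 group, and its replicate numbers name libraries of that group alone. With the fold limit kept, none of the 10 genes was called between the libraries under the scalings, minimum counts and tests tried, where the share of all genes called was 6.71% with DESeq2 size factors, 6.70% with library totals, 16.8% with spike-ins, 5.55% with no minimum count, 3.59% at 100 counts and 3.22% with the edgeR exact test. Without the fold limit 4 were, against 32.0% of all genes; Rspo4 was not tested at a minimum of 100 counts. Lgr6 turned from 0.02 to -0.66 (log2, replicate 2 to 1) with spike-in scaling. That scaling put 9 of the 10 ratios below 0, with Rspo2 (-0.96), Axin2 (-0.94), Rspo3 (-0.93) and Rspo1 (-0.90) just short of the fold limit. The number detected was 9, and 8 at 2 TPM or with FPKM. With posterior-mean TPM the log2 ratio of Lgr4 to Lgr6 was 3.64, of Rnf43 to Znrf3 0.28 and of Rspo3 to Rspo1 0.33. With CPM, Lgr4 to Lgr5 was 3.18, Rnf43 to Znrf3 -0.77 and Rspo3 to Rspo1 0.80. With protein-coding transcripts alone, chosen after seeing the data, these 3 were 3.25, -0.97 and 0.41. The summed R-spondins were 21.2 in FPKM, another unit. Rnf43-206 took 41.2% of counts and 40.3% of posterior-mean TPM, and Axin2-201 took 68.3% and 32.1%. Each library alone kept the direction of all 4 ratios. Depth limits Rspo4 (4 and 15 counts), and short transcripts with under 20 counts limit the TPM of Lgr5 and Axin2. The TPM of Axin2 is also limited by Axin2-203, and that of Lgr5 by Lgr5-203, forms with few bases of their own.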
